A study of Mus musculus with 7 samples.

Results

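Complement is a set of plasma proteins and receptors that marks particles for uptake, calls in leukocytes and can puncture membranes. C1q, built from the products of C1qa, C1qb and C1qc, starts the classical pathway when it binds antibody or dying cells. Factor B and properdin, the products of Cfb and Cfp, form and stabilise the convertase of the alternative pathway, and the receptors encoded by C3ar1 and C5ar1 sense the fragments that its cleavage steps release. Tissue macrophages are a main source of C1q, whereas properdin and both receptors are typical of monocytes and neutrophils.

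These genes were followed in a preparation of natural killer (NK) cells, the innate lymphocytes that kill infected or transformed targets. Of the 8 genes listed, C1qa, C1qb, C1qc, Cfp, Cfb, C3ar1 and C5ar1, 7 in all, were measured, out of 19752 genes tested. C3 was not analysed here. They were taken by name as complement components and receptors, with earlier results of these data known, each through its single probe with 1 gene symbol. Splenic cells of male C57BL/6 mice aged 6 weeks went through EasySep negative selection, in which unwanted cells are labelled and removed, and were then cultured for 8 h with interleukin 2 (IL2) at 250 U/ml or without cytokine. There were 4 arrays of IL2-treated cells, numbered 1 to 4 as replicates, and 3 of untreated cells, numbered 2 to 4. All were Affymetrix Mouse Gene 1.0 ST arrays, which carry several short probes along each transcript. No label says whether replicates came from separate mice, pools or cultures, so that a p-value here reflects sample-to-sample spread alone, which may be technical. Values are log2 intensities, in which a difference of 1 is a doubling. An intensity depends on the probe as well as on the RNA, so levels are compared between arrays and never between genes.

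The arrays had median intensities of 121 to 131. Markers of NK cells were present and 7 of 12 were higher with IL2 (median log2 fold change 1.44), led by the granule protein gene Nkg7 (2.27, SE 0.09, limma adjusted p = 5.98e-05). Other cell types were also present. Of 9 B cell markers 1 was lower, the IgE receptor gene Fcer2a (-0.98, SE 0.15). Of 11 dendritic cell markers 2 were lower, led by the lectin gene Cd209a (-1.71, SE 0.14). The dendritic cell list had a median of -0.27, with 7 values negative and 4 positive, Clec9a among the latter (0.37, SE 0.12). No T cell marker of 9 and no erythroid or platelet marker of 7 passed the test in limma, with 1 and 2 at an unadjusted p under 0.05. Over all genes, limma called 410 higher and 178 lower at a Benjamini-Hochberg adjusted p under 0.05, and 694 and 577 when the arrays were quantile normalized again. A bulk array cannot tell fewer cells of a type from less RNA per cell.

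None of the 7 complement genes passed the test at this threshold, where 2.08% of all genes were called higher and 0.901% lower. Cfb and C1qb lay higher on every IL2 array than on every untreated array, Cfp and C5ar1 lay lower on every IL2 array, C3ar1 was lower on average with overlapping arrays, and C1qa and C1qc differed little. The groups thus did not overlap for 4 of the 7, beside 9.63% of all genes, with 2 above (6.25% of all genes) and 2 below (3.38%). At an unadjusted p under 0.05 limma listed 5 of the 7, beside 13.5% of all genes. The median log2 fold change of the 7 was -0.06, against -0.01 over all genes, and hides values that ran from -0.91 to 0.76.

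**Figure D1:**
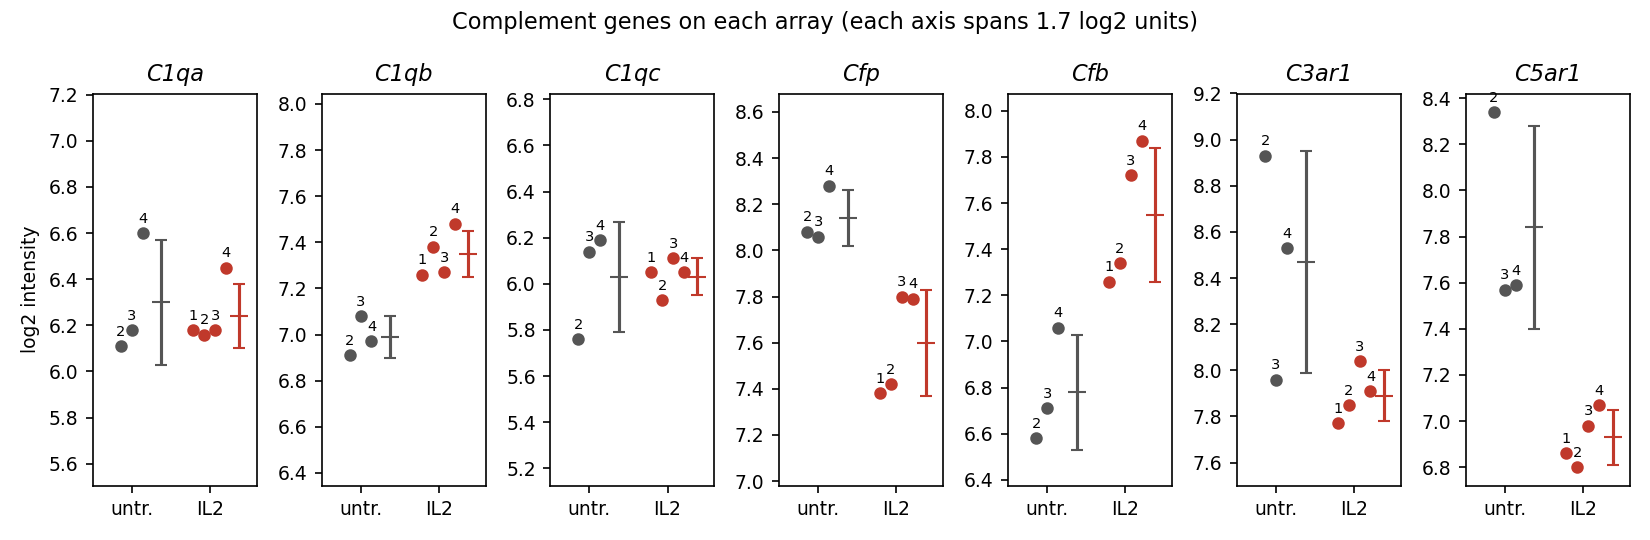
Log2 intensity of each of the 7 complement genes on the 3 untreated (grey) and 4 IL2 (red) arrays, with the replicate number above each point and the mean and SD at the right of each group. The groups are apart for C1qb, Cfp, Cfb and C5ar1 and overlap for C1qa, C1qc and C3ar1.

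Of the recognition chains of C1q, C1qa and C1qc had log2 fold changes near 0 over all arrays. C1qa, the A chain, had log2 intensities of 6.11, 6.18 and 6.60 in untreated replicates 2, 3 and 4, and of 6.18, 6.16, 6.18 and 6.45 in IL2 replicates 1 to 4. The highest value of each group was on replicate 4 and the rest of the arrays lay together, so that the groups overlapped throughout. The log2 fold change was -0.06 (SE 0.14, 95% interval -0.38 to 0.27, limma adjusted p = 0.922). C1qc, the C chain, read 5.76, 6.14 and 6.19 untreated and 6.05, 5.93, 6.11 and 6.05 with IL2. Untreated replicate 2 was the lowest array, and the IL2 arrays fell within the range of the untreated ones. Its log2 fold change was 0.0037 (SE 0.12, 95% interval -0.27 to 0.28, limma adjusted p = 0.995). Over the 3 arrays without the culture time in their titles, 1 of them untreated, the differences were 0.06 for C1qa, 0.41 for C1qb and 0.23 for C1qc, and over the 4 with the time they were -0.07, 0.35 and -0.09.

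C1qb, the B chain, stood apart from these. It read 6.91, 7.08 and 6.97 in untreated replicates 2, 3 and 4 and 7.26, 7.38, 7.27 and 7.48 in IL2 replicates 1 to 4. Every IL2 array was above every untreated array, with a gap of 0.18 between the groups. The means were 6.99 ± 0.09 (SD, n = 3) and 7.35 ± 0.10 (n = 4), a log2 fold change of 0.36 (SE 0.09, 95% interval 0.16 to 0.57), which did not pass the test (limma adjusted p = 0.0896). Whether the difference of C1qb is larger than those of C1qa and C1qc was not tested. C1qa and C1qc lay below the median signal of all genes, and these arrays give no detection call. C1qa held exactly 1 value on 3 arrays and C1qc on 2, while 10721 of all 19752 genes held an equal value on at least 2 arrays.

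The chain genes are neighbours in the order C1qb, C1qc and C1qa, with 0 annotated genes between them in RefSeq's GRCm38.p6 table. Promoters of 6 of the 8 listed genes were in the RefSeq promoter table of that build, and those of C1qa and Cfb were not analysed here. The 250 bases before the start that the promoter table lists are shown for C1qb, whose groups were apart, and C1qc, whose groups overlapped. Both anaphylatoxin receptors are shown too, a choice made after the values were seen. Most of the C5ar1 stretch and a short part of the C1qc stretch lie inside the gene's span in RefSeq's gene table. These 2 are therefore not wholly upstream of the annotated gene. All stretches run 5′ to 3′ on the gene's strand. Capitals mark, on either strand, GGG and CC separated by any 5 bases, a loose NF-κB site.
C1qb (chr4:136886201-136886450, minus strand): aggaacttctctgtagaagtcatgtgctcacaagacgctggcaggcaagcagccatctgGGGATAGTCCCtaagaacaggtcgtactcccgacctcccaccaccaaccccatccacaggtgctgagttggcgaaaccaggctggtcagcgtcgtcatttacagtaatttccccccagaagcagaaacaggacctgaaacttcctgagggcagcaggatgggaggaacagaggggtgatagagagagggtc
C1qc (chr4:136892915-136893164, minus strand): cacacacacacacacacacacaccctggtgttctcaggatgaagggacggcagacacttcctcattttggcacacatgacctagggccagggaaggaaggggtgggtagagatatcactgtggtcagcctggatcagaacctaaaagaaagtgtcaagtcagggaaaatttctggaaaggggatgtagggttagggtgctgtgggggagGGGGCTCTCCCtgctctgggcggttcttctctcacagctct
C3ar1 (chr6:122856158-122856407, minus strand): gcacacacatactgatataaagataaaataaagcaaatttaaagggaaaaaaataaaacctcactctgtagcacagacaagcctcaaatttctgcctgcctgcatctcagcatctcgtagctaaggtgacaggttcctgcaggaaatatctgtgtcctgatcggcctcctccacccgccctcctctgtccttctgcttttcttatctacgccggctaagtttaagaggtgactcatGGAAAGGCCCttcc
C5ar1 (chr7:16259339-16259588, minus strand): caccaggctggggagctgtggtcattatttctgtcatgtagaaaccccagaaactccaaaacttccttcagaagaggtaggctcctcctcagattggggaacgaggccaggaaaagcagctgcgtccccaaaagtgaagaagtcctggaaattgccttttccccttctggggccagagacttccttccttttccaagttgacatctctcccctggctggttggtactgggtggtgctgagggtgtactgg
TTCNNNGAA, the STAT core, and the core of the interferon response element (a pair of GAAA separated by any 2 bases) had 0 matches on either strand. The bases searched were the 250 before the listed start of each of the 6 genes. Of the 32851 promoters listed, 7.02% held the former and 2.98% the latter. The loose NF-κB pattern was found in the stretches of C1qb, C1qc, C3, Cfp and C3ar1 and in 45.8% of all promoters. Its matches in C1qb and C1qc are overlapping pairs on opposite strands. A match is a run of letters and was not tested for binding.

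The alternative pathway genes lay in opposite directions. Cfb, which encodes the protease of the alternative pathway convertase and is inducible by interferon-gamma in macrophages, read 6.58, 6.71 and 7.06 in untreated replicates 2, 3 and 4. With IL2 it read 7.26, 7.34, 7.72 and 7.87 in replicates 1 to 4. All IL2 arrays lay above all untreated arrays, with a gap of 0.20, and within IL2 replicates 3 and 4 lay above 1 and 2. The means were 6.78 ± 0.25 (SD, n = 3) and 7.55 ± 0.29 (n = 4), a 1.7-fold difference (log2 0.76, SE 0.18, 95% interval 0.34 to 1.18, limma adjusted p = 0.0814). The titles of replicates 3 and 4 give the culture time and the other titles do not. Over the arrays with the time the difference was 0.91 and over those without it, 1 of them untreated, 0.72. With this title style as a block Cfb passed the test (0.83, SE 0.11, limma adjusted p = 0.0117), where 2.93% of all genes were called higher. Interferon response genes were higher over the same arrays. Of 14 measured, 13 were called, with a median of 1.89, led by the chemokine gene Cxcl9 (4.54, SE 0.12, limma adjusted p = 1.26e-05). Their mean log2 level on the IL2 arrays was 2.08 to 2.62 above the untreated mean. Their summed intensity, which weighs the brightest genes most, was 2664 to 4631 in untreated and 18167 to 22312 in IL2 arrays. Their part in the Cfb difference was not tested.

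Cfp, which encodes properdin, the stabiliser of that convertase, read 8.08, 8.06 and 8.28 in untreated replicates 2, 3 and 4 and 7.38, 7.42, 7.80 and 7.79 in IL2 replicates 1 to 4. Every IL2 array was below every untreated array, and IL2 replicates 1 and 2 were the lowest. The means were 8.14 ± 0.12 (SD, n = 3) and 7.60 ± 0.23 (n = 4), a log2 fold change of -0.54 (SE 0.13, 95% interval -0.85 to -0.23, limma adjusted p = 0.0927). Arrays with the time in their titles gave -0.38 and the others -0.68. With title style as a block it passed the test (-0.50, SE 0.10, limma adjusted p = 0.0433), where 1.25% of all genes were called lower.

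Both anaphylatoxin receptor genes were lower on average with IL2, and their untreated arrays were widely spread. C5ar1, the receptor for the leukocyte attractant C5a, read 8.34, 7.57 and 7.59 in untreated replicates 2, 3 and 4 and 6.86, 6.80, 6.98 and 7.07 in IL2 replicates 1 to 4. The groups were 0.50 apart, and untreated replicate 2 lay above the other untreated arrays. The means were 7.84 ± 0.44 (SD, n = 3) and 6.93 ± 0.12 (n = 4), a 1.88-fold lower level with IL2 (log2 -0.91, SE 0.19, 95% interval -1.35 to -0.46, limma adjusted p = 0.0526). Without untreated replicate 2 the difference was smaller and passed the test (-0.66, SE 0.10, limma adjusted p = 0.03), where 0.714% of all genes were called lower. It did not pass without any other single array. By title style it was -0.56 over the arrays with the time and -1.51 over those without, where untreated replicate 2 is the single untreated array.

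C3ar1, the receptor for C3a, read 8.93, 7.96 and 8.53 untreated and 7.77, 7.85, 8.04 and 7.91 with IL2, in the same order of replicates. Untreated replicate 3 lay within the range of the IL2 arrays, while the other untreated arrays were above it. The means were 8.47 ± 0.48 (SD, n = 3) and 7.89 ± 0.11 (n = 4), a log2 fold change of -0.59 (SE 0.21, 95% interval -1.06 to -0.11, limma adjusted p = 0.25). It was -0.28 and -1.12 over the arrays with and without the time in their titles. Without untreated replicate 3 it was -0.84 and passed the test (SE 0.14, limma adjusted p = 0.0476), where 0.77% of all genes were called lower. Without untreated replicate 2 it was -0.36 (SE 0.17, limma adjusted p = 0.337), and it did not pass without any other single array either.

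**Figure D2:**
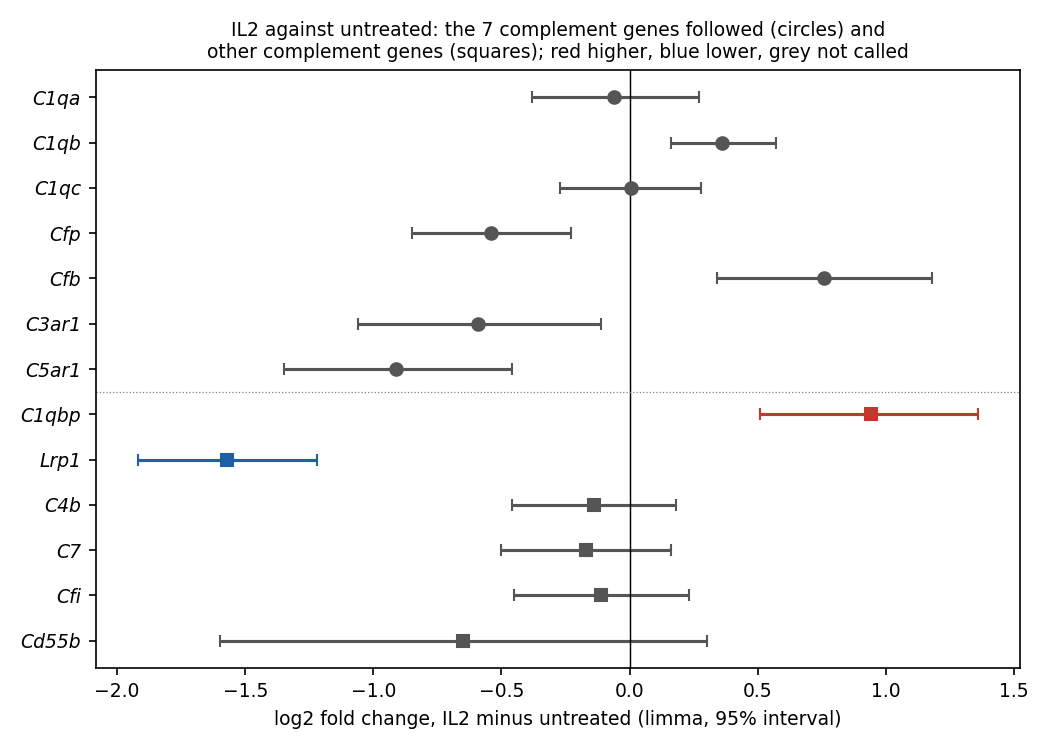
Log2 fold change, IL2 minus untreated, with its 95% interval from limma for the 7 complement genes (circles) and for other complement genes named by rule (squares). Grey marks genes that did not pass the test, red C1qbp (0.94) and blue Lrp1 (-1.57). The intervals of C1qa and C1qc span 0.

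Markers of myeloid cells moved over the same arrays as Cfp, C5ar1 and C3ar1. Of 13 monocyte markers 9 were lower and 0 higher (median -1.77), led by the adhesion receptor gene Adgre4 (-3.00, SE 0.23). Their values were negative for 12 and positive for 1, Fcgr4 (0.85, SE 0.35). Their summed intensity was 15757 to 16389 in untreated and 5389 to 6503 in IL2 arrays. Of 12 neutrophil markers 1 was lower, the collagenase gene Mmp8 (-2.49, SE 0.25), with a list median of -0.73 and sums of 10288 to 13291 against 5925 to 8566. Of 14 macrophage markers 2 were lower (median -0.21), led by Adgre1, which encodes F4/80 (-2.07, SE 0.19), with sums of 3572 to 4288 against 1624 to 2366. Such sums weigh the brightest genes of a list most. Among the macrophage markers 10 of 14 lay below the median signal of all genes, Cd163, Cd5l, Marco and Siglec1 among them. Array intensities do not reach 0, so absence of a marker cannot be read from them. The mean log2 level of the receptor genes was 0.65 to 0.84 below its untreated mean on the IL2 arrays. That of the monocyte markers was 1.27 to 1.61 below, and that of the macrophage markers 0.40 to 0.65 below. For the C1q chains it was 0.05 to 0.22 above, within or near the -0.18 to 0.15 of the untreated arrays. The part of myeloid cells in the differences of Cfp, C3ar1 and C5ar1 was not tested.

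**Figure D3:**
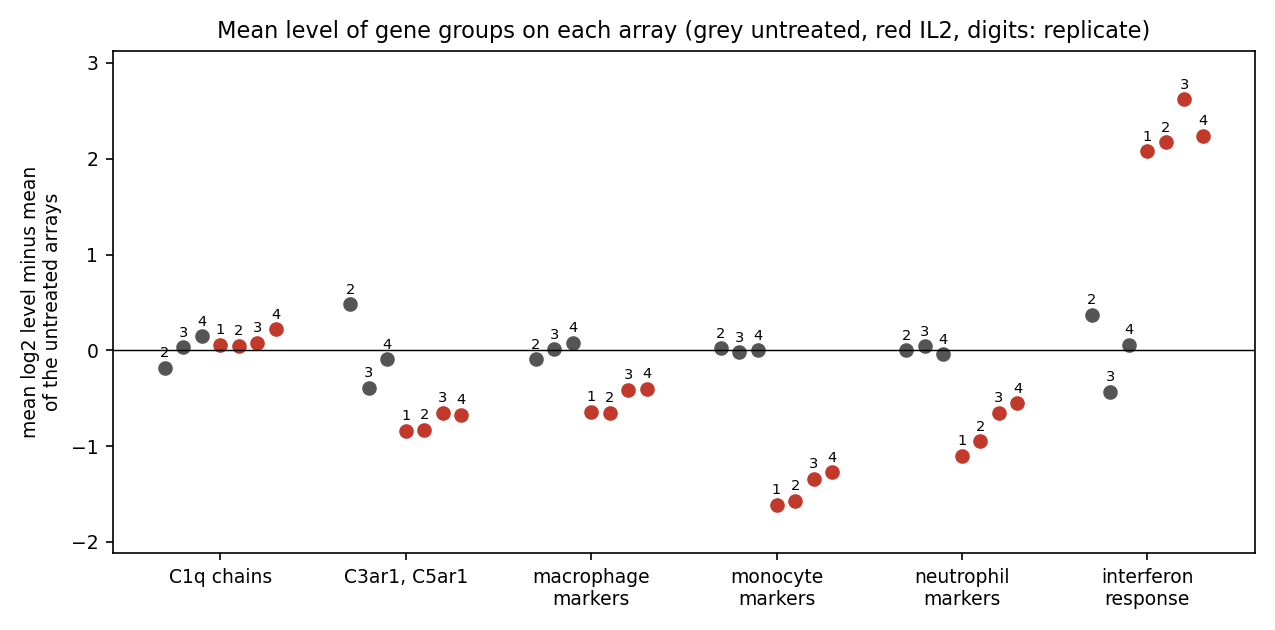
Mean log2 level of each gene group on each array, less the mean of the untreated arrays, which therefore average 0, for untreated (grey) and IL2 (red) arrays with replicate numbers. The C1q chains overlap, at -0.18 to 0.15 on the untreated and 0.05 to 0.22 on the IL2 arrays, and on the latter the monocyte markers lie 1.27 to 1.61 below the line.

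In the rest of the system, 47 of 54 other complement genes listed were measured, of which 1 was called higher and 1 lower, a share near the 2.08% and 0.901% of all genes, with a median of -0.04 against -0.01 over all genes. Both calls were among the 10 receptors and binding proteins. The arrays of the groups did not overlap for 6 of the 47, 2 above and 4 below, beside 9.63% of all genes. All 6 were among these 10, and for 1 of them, C5ar2, the gap was 0.00. At an unadjusted p under 0.05 limma listed 5 of the 47, all among these 10, beside 13.5% of all genes. Lrp1, a scavenger receptor that takes up C1q-bound material, went from 9.38 ± 0.34 (SD, n = 3) to 7.81 ± 0.06 (n = 4). It read 9.35, 9.05 and 9.73 in untreated replicates 2, 3 and 4 and 7.76, 7.75, 7.86 and 7.86 with IL2, so that the groups were 1.19 apart. Its fall was 2.97-fold (log2 -1.57, SE 0.15, limma adjusted p = 0.00215) and held with each array left out. C1qbp, which encodes a mitochondrial protein that also binds the globular heads of C1q, read 8.66, 8.51 and 8.94 untreated and 9.27, 9.52, 9.78 and 9.98 with IL2. It rose 1.91-fold (log2 0.94, SE 0.18, limma adjusted p = 0.0403). That call survived the omission of IL2 replicate 1 but not of any other single array (limma adjusted p from 0.0909 to 0.151). Over the arrays with the time in their titles Lrp1 was -1.53 and C1qbp 1.16. Neither passed there, where 0.41% of all genes were called higher and 0.111% lower. Over the arrays without the time, 1 of them untreated, Lrp1 was -1.60 and C1qbp 0.73.

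The other role groups held 0 calls, and 0 of their genes had an unadjusted p under 0.05 in limma over all 7 arrays with no block. Among 14 classical and lectin pathway components the largest difference was in C4b, the fourth component (-0.14, SE 0.14), and the range of the group was -0.14 to 0.13. Among 7 components of the membrane attack complex it was in C7 (-0.17, SE 0.14). All 7 values were negative, from -0.17 to -0.01, as were those of 10740 of all 19752 genes, and all 7 genes lay below the median signal. Among 8 soluble regulators the largest difference was in Cfi, the protease that inactivates C3b and C4b (-0.11, SE 0.15). Among 8 membrane regulators it was in Cd55b, a decay-accelerating factor gene (-0.65, SE 0.41). Cd55b was -0.17 without untreated replicate 2, -0.98 without untreated replicate 4, -1.23 over the arrays without the time in their titles, and had an unadjusted limma p of 0.00604 with the replicate number as a block. Cd55b and Cd55, like C4a and C4b, are near-identical copies whose probes may share signal. Of these 47 genes 34 lay below the median signal. An equal value on at least 2 arrays was held by 26 of the 47, and by 10721 of all 19752 genes. Serping1, the C1 inhibitor gene, held the same value on all 7, as did 22 of all genes.

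The C1q chains, each centred on its own mean and averaged, varied over the 7 arrays most like Olfr288, Gatm and Olfr1300-ps1 (Pearson's r of 0.936, 0.925 and 0.912 across 7 arrays, as a description), among 2086 genes outside the complement lists that spanned at least 1 log2 unit. None of these genes was called by limma, and the chains themselves had r of -0.01 (C1qa and C1qb), 0.12 (C1qb and C1qc) and 0.58 (C1qa and C1qc), so that their average is no profile shared by all of them.

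How many of the 7 complement genes passed depended on the scaling, among other settings. After quantile normalization again, C1qb (0.37, limma adjusted p = 0.0368) and Cfb (0.75, 0.0165) were called higher, where 3.51% of all genes were. Cfp (-0.62, limma adjusted p = 0.00942), C5ar1 (-0.92, 0.0146) and C3ar1 (-0.66, 0.0449) were called lower, where 2.92% of all genes were. The fold changes themselves moved by at most 0.08 on the log2 scale. The plot of fold changes by setting shows the direction of these 5 genes kept under every setting run, while C1qa and C1qc crossed 0. For C1qb, Cfb, Cfp and C5ar1 every IL2 array lay on 1 side of every untreated array. Leaving out or blocking arrays could therefore not turn their direction.

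**Figure D4:**
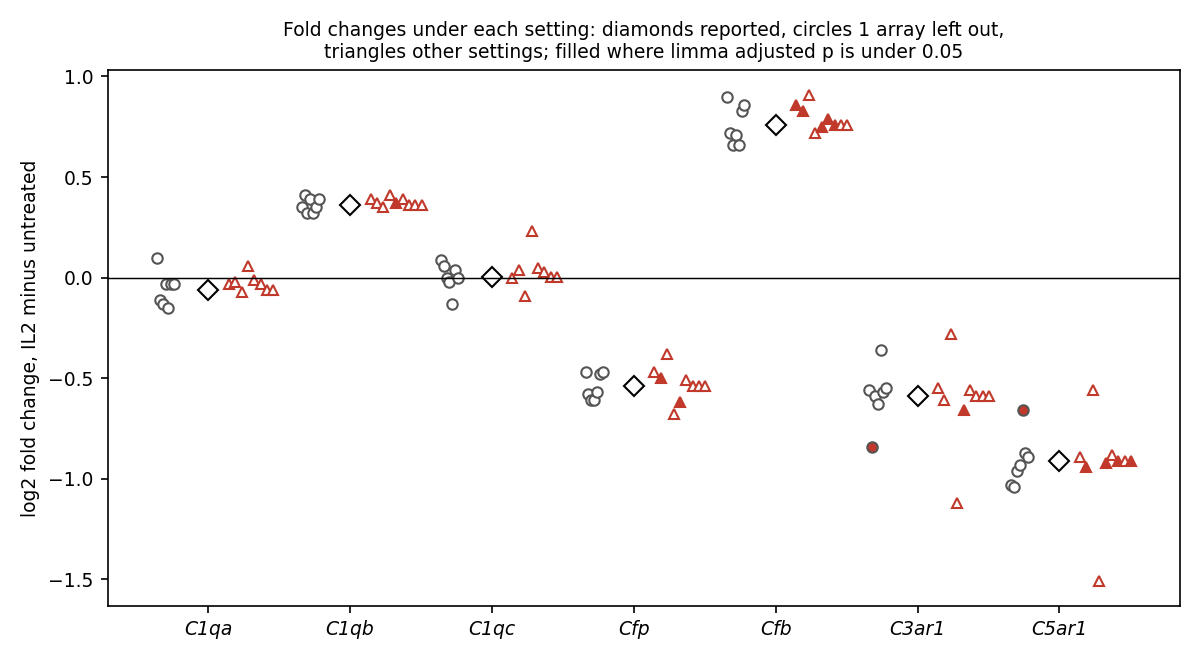
Log2 fold change, IL2 minus untreated, of the 7 complement genes as reported (diamonds), with 1 array left out (circles) and under other settings (triangles), filled where the limma adjusted p is under 0.05. C5ar1 spans -1.51 to -0.56 and Cfb 0.66 to 0.91, while C1qa and C1qc lie on both sides of 0.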

How the data were processed

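RNA of 7 samples was extracted with TriZol, amplified and hybridised to Affymetrix Mouse Gene 1.0 ST arrays. Per the submitters' processing notes, the authors used Affymetrix Power Tools and RMA, and deposited 1 intensity value per transcript cluster and array on a linear scale. Versions, and which arrays were normalized together, are not given in the sources used here. Log2 was taken with no offset. Of 24922 probes 21425 had 1 gene symbol in GEO's platform annotation, 1399 several and 2098 none. Of the 921 genes with more probes than 1 the brightest was kept, leaving 19752 genes and no filter on signal. Groups came from the sample titles.

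limma 3.58.1 under R 4.3.3 was fitted over all genes with 1 factor (lmFit, eBayes, 7.68 degrees of freedom), with Benjamini-Hochberg adjustment and a threshold of 0.05. On simulated data of the same design it recovered 79% of genes changed by 1 and 96% of those changed by 2 on the log2 scale, with 4.89% false calls. The complement genes, the lists of complement roles, cell type markers and interferon response genes, and the tests were chosen with earlier results of these data known. Named genes were the complement genes followed, every other complement gene called, the largest change in each role group without a call, the largest call in each marker list and the 3 genes most like the C1q mean. Coordinates are given for promoters alone, in GRCm38.p6. The number of arrays limits the precision.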

Additional observations from a re-analysis of the deposited data

Results flagged for a closer look

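Among the IL2 arrays, C1qa on replicate 4 lay far from the others, at a log2 level of 6.45 against 6.16 to 6.18. For C4b the same array was the low one, at 6.10 against 6.36 on each of the others. These 2 named genes were marked because 1 array's distance from the nearest other array made up nearly the whole range of the group. The IL2 arrays were checked in this way for 54 complement genes and 7 were marked. Chance marks about 1 in 20 groups of continuous values. That rate does not apply where arrays hold equal values, as 3 IL2 arrays do for C4b and 2 for C1qa.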

How the results depend on the processing

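Of the 7 complement genes, 0 were called higher as reported, 1 with the replicate block, with title style as a block, with each array centred on its median and with only the brighter part of all genes, split at the median signal (each time Cfb), and 2 after quantile normalization again. Over all genes 2.8%, 2.93%, 2.39%, 5.85% and 3.51% were called higher in the same order, against 2.08% as reported. Called lower were 0 as reported, 2 with title style as a block and 3 after quantile normalization again, where 1.25% and 2.92% of all genes were lower. With that signal filter and with trend and robust settings 1 was lower (each time C5ar1), where 2.2% and 0.921% of all genes were. Leaving out 1 array gave 0 higher and 0 to 1 lower, where 0.678% to 2.62% of all genes were higher and 0.329% to 0.77% lower. Of the other complement genes, 1 was called higher as reported, 2 after quantile normalization again, centring and the signal filter, and 0 to 2 with 1 array left out. Over the arrays with the time in their titles 0 were higher and 0 lower, where 0.41% and 0.111% of all genes were. Lower were 1 as reported and with any 1 array left out, and 2 with the replicate block (0.932% of all genes) and with title style as a block. After quantile normalization again and with the signal filter 3 were lower. The signal filter tests fewer genes and the title styles hold fewer arrays. With the replicate block, IL2 replicate 1 has no untreated array of its number and adds nothing to the difference. The fold changes there equal those without IL2 replicate 1, so these settings are not independent. For the other settings the cause was not tested. Taking the mean of all probes changed none of these counts.

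Directions turned for genes near 0. C1qc went from 0.0037 to -0.0019 with the replicate block, the same value as without IL2 replicate 1. It was -0.09 over arrays with the time in the title, 0.23 over those without it, and -0.13 to 0.09 with 1 array left out. C1qa went to 0.06 over the arrays without the time and spanned -0.15 to 0.10 with 1 array left out. C4b, C7 and Cfi read 0.15, 0.08 and 0.16 over the arrays without the time, and C4b spanned -0.25 to 0.0058 with 1 array left out. Same-numbered arrays of the groups had deviations that correlated at 0.46, -0.30 and 0.31 for numbers 2, 3 and 4. Untreated replicates 2 and 4 correlated best with the IL2 array of the same number, and untreated replicate 3 with IL2 replicate 1. Deviations from the means of such small groups depend on each other, so this does not settle whether the numbers pair the samples. With the replicate block 554 genes were higher and 184 lower over all genes.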
